A study of Mus musculus with 10 samples.

Results

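Mouse T helper cells cultured under Th17 conditions were compared with Th0 cells, their unpolarised control. The comparison takes 4 Th17 arrays and 3 Th0 arrays, chosen by the population named in each title, which is 7 of the 10 arrays of the series. Each array measured mRNA in 1 culture of CD4+ lymphocytes isolated from spleens of wild-type female BALB/c mice aged 10 to 14 weeks. All cultures were stimulated through the T cell receptor with an antibody to CD3 (4 µg/ml) and through its costimulatory receptor with an antibody to CD28 (30 ng/ml). The Th17 cultures also received IL-6 (20 ng/ml), TGF-β (5 ng/ml), IL-23 (10 ng/ml) and an antibody to interferon-γ (10 µg/ml), while the Th0 cultures received nothing further. Because the Th0 cultures lacked the interferon-γ antibody, its effect and that of the cytokines cannot be told apart. The 3 Th2 arrays, from cultures given IL-4 (100 ng/ml) and the same interferon-γ antibody, are set beside the other groups. They also enter the error estimate behind each p-value and the choice of probe set for each gene. Medium was exchanged at 72 h, and the sources used here give no harvest time. The titles call the arrays biological replicates, but nothing in the sources says whether each culture had its own mouse. The p-values cover the spread among these samples.

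Naive CD4+ T cells that receive TGF-β together with IL-6 take up the Th17 fate. IL-6 acts through the transcription factor STAT3 and TGF-β through Smad proteins, and both act on the interleukin 17 genes, which the nuclear receptor RORα (gene Rora) also promotes. IL-23, whose receptor appears only as the cells differentiate, sustains the fate, and interleukin 1 and ligands of the aryl hydrocarbon receptor strengthen it. Th17 cells protect mucosal surfaces against extracellular bacteria and fungi and take part in autoimmune inflammation.

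Of 22180 genes with an unambiguous probe set, 23 passed the test (limma, adjusted p under 0.05), which is 0.104% of all genes. Of these 21 rose in Th17 cells (0.0947%) and 2 fell (0.00902%). Every called gene differed by at least 1.14 on the log2 scale, and none had overlapping Th17 and Th0 values. An adjusted p between 0.05 and 0.1 was reached by 19 further genes, 15 higher and 4 lower. At an unadjusted p under 0.05, 2.50% of all genes were higher and 2.67% lower, and these shares are the background for each gene list below. The groups did not overlap for 3.22% of all genes in the higher and 4.35% in the lower direction. The median difference over all genes was -0.02. Of all genes 10375 (46.8%) had a positive and 11805 a negative difference, which is the background for counts of signs below. The median of a list often moved with 1 array: of 41 lists, 25 kept its sign with each array left out, and 22 kept it also without the 3 basophil-rich arrays described below. Where such a step turned the sign or moved a median by over 1.5 times, values from steps that did so are given beside it.

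**Figure D1:**
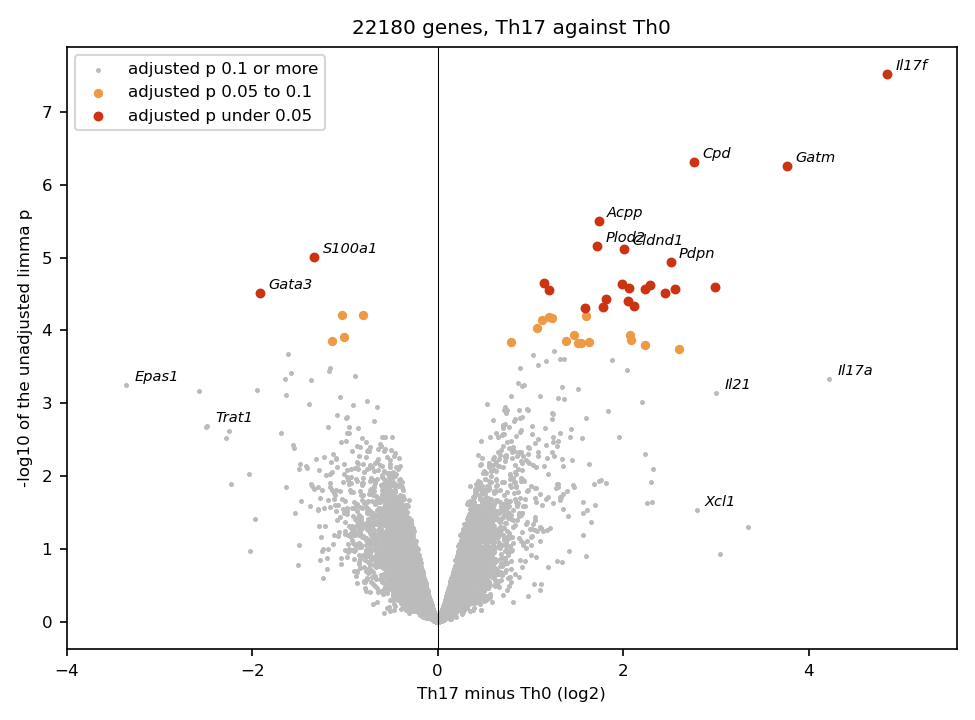
Difference between Th17 and Th0 (x axis, log2) against the unadjusted limma p (y axis, -log10) for each of 22180 genes. The called genes (red) lie almost all on the right: 21 were higher and 2, S100a1 and Gata3, lower, and Il17f stands farthest out.

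The calls depended on single arrays. Il17f and Cpd were called whichever of the 10 arrays was left out, and Gatm whichever except Th0 replicate 3. Of these 10 fits, Acpp was called in 6, Plod2, Cldnd1 and Pdpn in 4 each, and S100a1 and Klrd1 in 3 each. Il1r1, Adam19, Gpr15, Jun, Ahr, Upp1 and Il23r were called in 2 each. Pmepa1, Nt5e, Zdhhc2, Gata3, Sgk1, Rny3 and Fam3c were called in 1, the fit without Th2 replicate 1. Without Th0 replicate 3 only Il17f and Cpd were called. Without the 3 basophil-rich arrays, Il17f, Gatm and Pdpn were called. With Th0 replicates 1 or 2 left out the count was 6 or 8, with Th2 replicates 1, 2 or 3 left out 36, 5 or 4, and with Th17 replicates 1, 2, 3 or 4 left out 9, 9, 6 or 12. With the Th17 and Th0 arrays alone, so that Th2 arrays do not enter the error, 16 genes were called, 10 higher and 6 lower, and 9 of them were among the 23. Epas1, Trat1 and Ctsw, described below with their adjusted p from all 10 arrays, were called there. The sign of the difference held under each of these for all 23 genes.

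Markers of other cells differed between arrays. T cell identity markers had means from 8.12 to 9.14 on all 10 arrays. Cpa3, a protease of mast cells and basophils, was at 10.74 on Th0 replicate 1 and at 9.28 and 9.35 on Th17 replicates 2 and 3. These 3 arrays, called basophil-rich from here on, had the highest values, and Cpa3 was at 6.86 or lower on the others. The name stands for high Cpa3 and the high marker mean given next, and it does not separate basophils from mast cells. Not every marker followed it. Prss34 and Hdc were at 6.06 and 5.14 on Th0 replicate 1. On Th17 replicates 2 and 3 Prss34 was at 3.73 and 4.00 and Hdc at 3.31 and 3.47, near the other arrays. The mean of 15 basophil and mast cell markers was 6.16, 3.24 and 3.83 on the Th0 arrays and 3.52, 5.01, 4.94 and 3.27 on the Th17 arrays. The neutrophil transcript S100a8 was at 7.16 on Th17 replicate 1 alone and at 3.74 or less on each other array. Th17 replicate 4 stood apart on the first principal component, together with Th2 replicates 2 and 3. In bulk samples like these, fewer cells of a type and less RNA per cell cannot be told apart.

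**Figure D2:**
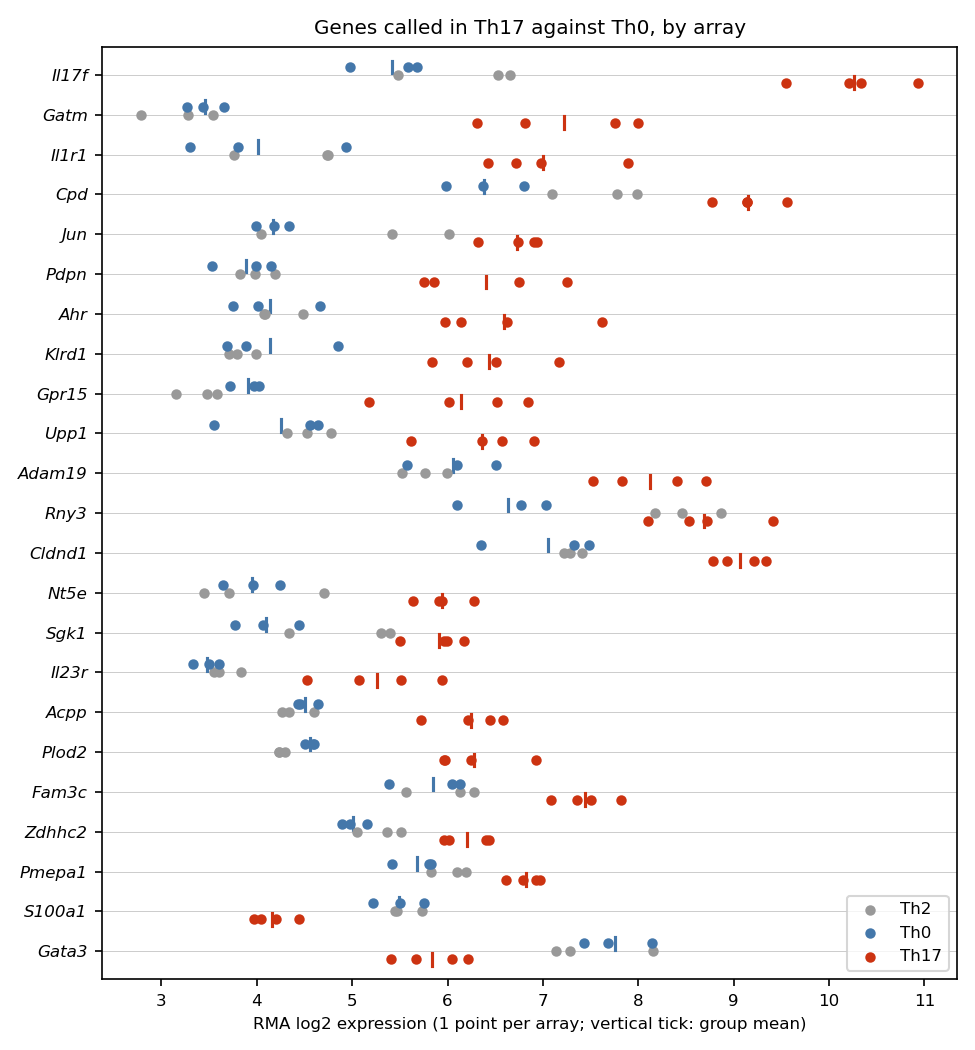
RMA log2 expression of the 23 called genes on each array, with Th0 in blue, Th2 in grey and Th17 in red, and a vertical tick at the Th0 and Th17 means. Red and blue points do not overlap in any row, and for Rny3 the grey points lie with the red ones.

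Il17f, which encodes a secreted interleukin 17 that recruits neutrophils, changed most. Its log2 expression (probe set 17221627) was 5.59, 5.68 and 4.97 on the Th0 arrays and 10.94, 10.21, 9.55 and 10.34 on the Th17 arrays. The lowest Th17 value was far above the highest Th0 value, and the difference was 4.85 ± 0.35 (SE), or 28.7-fold (limma, adjusted p = 0.000676). The Th2 arrays, at 5.48, 6.53 and 6.66, lay near the Th0 arrays. Il17a, its neighbour in the genome and the other main interleukin 17, was at 10.54, 10.31, 10.35 and 10.13 on the Th17 arrays. The Th0 arrays disagreed about Il17a, at 7.55, 7.31 and 3.46. With that spread the difference of 4.22 ± 0.86 did not pass (adjusted p = 0.180), although the groups did not overlap.

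The start sites of Il17f, Il17a and Il23r are shown, since Il17f and Il23r were called and Il17a is the neighbour of Il17f. Stretches marked in capitals are the letters AGGTCA or TGANTCA on either strand (TGACCT is AGGTCA read on the other strand). AGGTCA is the core to which RORα and other nuclear receptors bind. TGANTCA, with N any base, is a loose form of the AP-1 site, whose usual middle base is C or G. Each window holds 250 bases before and 50 bases after a RefSeq start site in build GRCm38.p6, written 5′ to 3′ along the gene.
Il17f, chr1:20784221-20784520, minus strand: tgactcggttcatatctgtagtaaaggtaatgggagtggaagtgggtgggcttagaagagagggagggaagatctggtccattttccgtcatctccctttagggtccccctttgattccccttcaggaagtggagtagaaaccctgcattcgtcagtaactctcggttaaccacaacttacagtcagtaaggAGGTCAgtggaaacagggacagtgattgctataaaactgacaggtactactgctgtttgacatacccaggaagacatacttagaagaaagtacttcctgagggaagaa
Il17a, chr1:20730655-20730954, plus strand: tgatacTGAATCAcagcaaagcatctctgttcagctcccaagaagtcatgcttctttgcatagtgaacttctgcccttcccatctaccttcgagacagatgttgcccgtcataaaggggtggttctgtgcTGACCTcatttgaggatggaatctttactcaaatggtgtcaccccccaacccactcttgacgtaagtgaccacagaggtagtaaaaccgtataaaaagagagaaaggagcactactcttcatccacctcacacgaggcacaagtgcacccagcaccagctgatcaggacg
Il23r, chr6:67491806-67492105, minus strand: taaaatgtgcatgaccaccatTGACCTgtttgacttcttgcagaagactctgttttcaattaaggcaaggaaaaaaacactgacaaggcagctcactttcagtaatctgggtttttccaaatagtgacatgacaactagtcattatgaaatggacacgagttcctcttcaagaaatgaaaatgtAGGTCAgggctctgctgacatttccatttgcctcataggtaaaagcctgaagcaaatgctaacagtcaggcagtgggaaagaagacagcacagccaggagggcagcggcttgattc
The Il17f window held AGGTCA at position -58 from the start site, and the Il17a window held it at -120 on the opposite strand. The Il17a window also held TGANTCA at -244, with A as its middle base. The Il23r window held AGGTCA at -229 on the opposite strand and at -66 on the gene's own strand. Positions are those of the first base of the match. Of all 32851 RefSeq windows of this length 16.3% held AGGTCA and 7.81% held TGANTCA. Of 27 windows of the 17 called genes found in the table, 9 held AGGTCA, in Il17f, Gatm, Pdpn, Adam19, Sgk1, Upp1 and Il23r, and 4 held TGANTCA, in Adam19, Gpr15 and Upp1. The letters GCGTG, the core bound by the aryl hydrocarbon receptor, stood in 10 of the 27 windows and in 32.4% of all. The letters TTCNNNGAA, bound by STAT factors, stood in 1 of them (Sgk1) and in 8.30% of all. The motifs were chosen after the expression values were seen, and a match describes the letters, not binding.

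Some other cytokines of the Th17 programme had positive differences that did not pass the test. Il21, which acts back on T cells and drives B cell responses, was at 9.73, 9.13, 9.22 and 10.22 in Th17 cells and at 5.98, 8.52 and 5.22 in Th0 cells, a difference of 3.00 ± 0.65 (adjusted p = 0.236). Its groups were separated, but Th0 replicate 2 came close. Il22, which acts on epithelial cells, was at 2.88, 3.39, 5.35 and 5.14 on the Th17 arrays and at 2.25, 2.21 and 2.25 on the Th0 arrays. Th17 replicates 3 and 4 thus carried most of a difference of 1.95 ± 0.51 (adjusted p = 0.483). Of 15 measured effector cytokines and partners 1 was called, and 5 were higher and 0 lower at an unadjusted p under 0.05. The fifth, Ccl20, attracts cells bearing CCR6 and differed by 1.05 (adjusted p = 0.931). In the list 10 members had a positive and 5 a negative difference. The median of the list was 0.58, against -0.02 over all genes.

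Among the receptors that receive the added cytokines, Il23r, the chain specific to the IL-23 receptor, was the 1 called. Its values were 3.494, 3.601 and 3.333 in Th0 and 5.94, 5.07, 5.51 and 4.52 in Th17 cells, with Th17 replicate 4 the lowest of the Th17 arrays but still above all of Th0. Il23r rose by 1.78 ± 0.28, or 3.45-fold (limma, adjusted p = 0.0473), and was at 3.83, 3.61 and 3.55 in Th2 cells. Il12rb1, the chain it shares its receptor with, differed by -0.73 (adjusted p = 0.918). The TGF-β type I receptor Tgfbr1 differed by 0.78 (adjusted p = 0.711) and the activin receptor Acvr2a by 0.90 (adjusted p = 0.636). Of 18 receptor chains and kinases 3 were higher and 1 was lower at an unadjusted p under 0.05. Their median of 0.18 was 0.068 without Th0 replicate 1, 0.35 without Th0 replicate 2 and -0.052 without the basophil-rich arrays.

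Il1r1, the signalling receptor for interleukin 1, had the largest increase among the called receptors. It stood at 4.94, 3.81 and 3.30 on the Th0 arrays and at 7.89, 6.98, 6.72 and 6.43 on the Th17 arrays, so that the lowest Th17 array exceeded the highest Th0 array by more than a log2 unit. Il1r1 rose by 2.99 ± 0.43, or 7.94-fold (limma, adjusted p = 0.0382), and Th17 replicate 1, the array with the neutrophil transcript, was the highest. The part of neutrophils in the result was not tested. Without Th17 replicate 1 the difference was 2.69 (adjusted p = 0.0900), and Il1r1 was called in 2 of the 10 fits that left out 1 array. The decoy receptor Il1r2 differed by 1.10 (adjusted p = 0.827), the interleukin 18 receptor chains Il18r1 and Il18rap by 1.34 and 0.54 (adjusted p = 0.612 and 0.900). Of 13 measured members of the interleukin 1 and 18 receptor family these 4 were higher and 0 lower at an unadjusted p under 0.05. The other 9 did not reach that threshold. The median of the family was 0.00, and it ran from -0.12 without Th17 replicate 1 to 0.063 without Th0 replicate 1.

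The called gene of the TGF-β response was an inhibitor of the pathway itself. Pmepa1, a membrane protein that retains receptor-activated Smads, was at 5.41, 5.81 and 5.83 in Th0 and 6.96, 6.62, 6.93 and 6.79 in Th17 cells. The 4 Th17 arrays were close together and all above Th0, and Pmepa1 rose by 1.14 ± 0.16, or 2.21-fold (limma, adjusted p = 0.0382). Smad7, which blocks the type I receptor, differed by 1.23 (adjusted p = 0.342) and Skil, which represses Smad targets in the nucleus, by 1.24 (adjusted p = 0.350). Both were separated between Th17 and Th0. Xcl1, a chemokine also in this list, differed by 2.79 (adjusted p = 0.907) with Th0 arrays from 5.38 to 9.56. In the other direction Nrros, which holds latent TGF-β, differed by -1.10 (adjusted p = 0.612), and Id2, a helix-loop-helix inhibitor, by -0.77 (adjusted p = 0.880). Of 27 Smad and TGF-β response genes 1 was called, 5 were higher and 3 lower at an unadjusted p under 0.05, and the median of 0.14 was 0.0027 without Th0 replicate 1 and 0.21 without Th17 replicate 4. Of 18 STAT factors and SOCS inhibitors 1 was higher and 1 lower. Socs3, the feedback inhibitor of IL-6 and IL-23 signalling, differed by 0.94 and Stat4, which transmits IL-12, by -0.97 (adjusted p = 0.896 and 0.913).

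**Figure D3:**
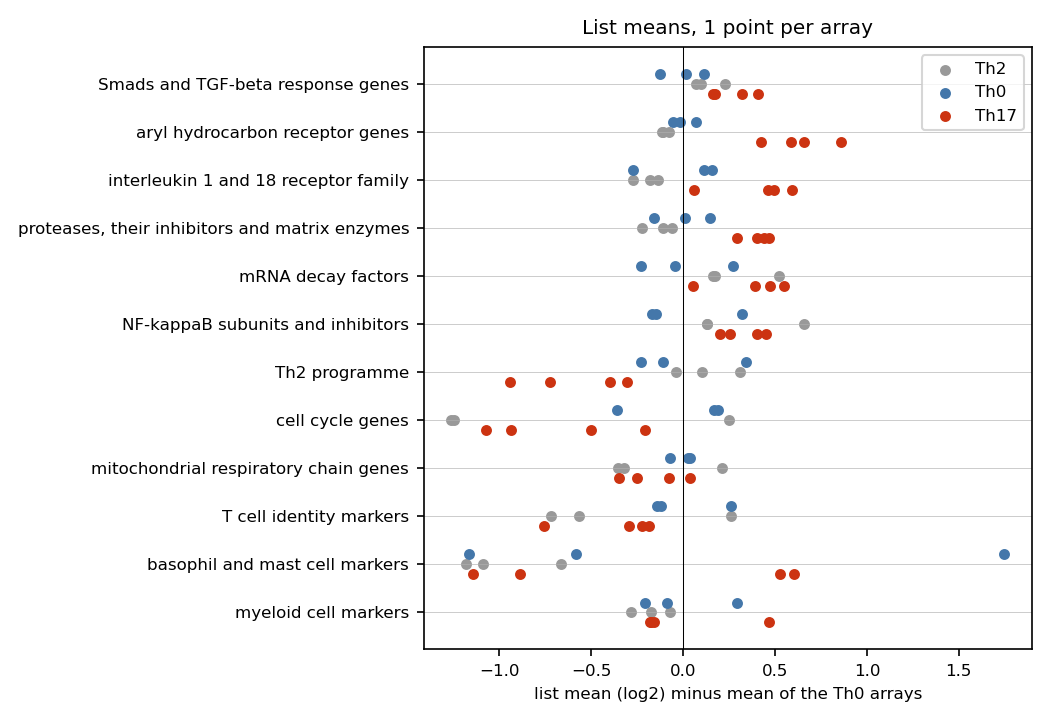
Mean log2 expression of 12 gene lists on each array, as the difference from the Th0 mean (x axis, log2), with Th0 in blue, Th2 in grey and Th17 in red. The Th17 arrays lie right of all Th0 arrays for Smad and TGF-β response genes, aryl hydrocarbon receptor genes and proteases. They lie left of all Th0 arrays for the Th2 programme and T cell identity markers, and on both sides for basophil and mast cell markers.

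Among nuclear factors Ahr, the aryl hydrocarbon receptor, which senses dietary and microbial compounds and is needed for Il22 expression, stood at 4.66, 3.75 and 4.01 in Th0 and at 7.62, 5.97, 6.62 and 6.14 in Th17 cells. Its groups did not overlap. Ahr rose by 2.45 ± 0.36, or 5.45-fold (limma, adjusted p = 0.0382), and lay between 4.08 and 4.48 in Th2 cells. Its targets had smaller differences. Cyp1a1, a detoxifying oxidase and a classic target, was at 3.31, 3.35 and 3.39 in Th0 and 3.62, 3.83, 4.08 and 3.74 in Th17 cells. That difference of 0.47 was small and did not pass (adjusted p = 0.651), though the groups were separated. Cyp1b1 differed by 0.95 (adjusted p = 0.952), with Th17 replicate 4 at 5.22 and the other Th17 arrays at 3.94 or below. Ahrr, the receptor's repressor, differed by 0.17 (adjusted p = 0.999). Of 11 aryl hydrocarbon receptor genes 4 were higher and 0 lower at an unadjusted p under 0.05, Il22 among them, with a median of 0.40 (0.27 without Th0 replicate 2).

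Jun, which pairs with Fos proteins in AP-1, was at 4.33, 3.99 and 4.18 in Th0 and at 6.32, 6.94, 6.74 and 6.90 in Th17 cells. All 4 Th17 arrays exceeded all Th0 arrays, and Jun rose by 2.56 ± 0.37, or 5.88-fold (limma, adjusted p = 0.0382). Th2 arrays were divided, at 4.05, 6.02 and 5.42, and differed from Th0 by 0.99 on average. No other member of the family was called. Batf, a partner of Jun in Th17 cells, differed by -0.76 and its relative Batf3 by 1.32, while Maf, which promotes Il21 and Il10, differed by 1.36 (adjusted p from 0.839 to 0.955). Of 21 AP-1, ATF and Maf genes 3 were higher and 1 lower at an unadjusted p under 0.05, with a median of 0.15 (0.062 without Th0 replicate 3 and 0.23 without Th0 replicate 2).

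Rora stood just outside the threshold. Its values were 4.05, 3.90 and 4.41 in Th0 and 4.97, 5.46, 5.07 and 5.47 in Th17 cells, without overlap, and it differed by 1.12 ± 0.18 (limma, adjusted p = 0.0549). Foxo1, which keeps T cells in a resting, recirculating state, differed by 0.79 ± 0.14 (adjusted p = 0.0838), at 8.38, 7.98, 8.10 and 8.16 in Th17 against 7.31, 7.52 and 7.26 in Th0 cells. Bach2, a repressor that restrains effector fates, differed by 0.97 (adjusted p = 0.563). Sgk1, a kinase that phosphorylates Foxo1 and stabilises the IL-23 receptor in Th17 cells, was called. It was at 3.77, 4.44 and 4.07 in Th0 and at 5.963, 5.997, 5.497 and 6.169 in Th17 cells. Sgk1 rose by 1.81 ± 0.27, or 3.52-fold (adjusted p = 0.0432), and Th2 replicates 2 and 3, at 5.39 and 5.30, lay between the groups while Th2 replicate 1, at 4.34, lay within Th0.

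Gata3, the transcription factor of the Th2 fate, was 1 of the 2 genes that fell. It was at 7.43, 8.14 and 7.68 in Th0 and at 6.04, 5.41, 5.67 and 6.21 in Th17 cells, with no overlap, and it fell by 1.92 ± 0.28 on the log2 scale (limma, adjusted p = 0.0382). Th2 cells resembled Th0 cells in Gata3, at 8.15, 7.28 and 7.14. Epas1, the hypoxia-inducible factor HIF-2α, had the largest decrease of any gene with separated groups. It was at 7.32, 8.18 and 6.12 in Th0 and 4.38, 3.66, 4.15 and 3.21 in Th17 cells, but a difference of -3.36 ± 0.70 did not pass (adjusted p = 0.201). With the Th17 and Th0 arrays alone Epas1 was called (adjusted p = 0.0492). Th2 arrays spread widely in Epas1, at 7.66, 4.94 and 4.44. Other members of the Th2 programme had negative differences without a call: the steroid-synthesising enzyme Cyp11a1 at -2.25, the chemokine receptor Ccr8 at -2.03, the cytokine Il4 at -1.10 and the MAP kinase phosphatase Dusp6 at -0.96 (adjusted p from 0.431 to 0.852). Of 24 measured members of the Th2 programme 1 was called lower, and 0 were higher and 8 lower at an unadjusted p under 0.05, with a median of -0.33. Markers of basophils and mast cells, which share Il4 with Th2 cells, differed between arrays in both groups. Without the 3 arrays highest in these markers the Gata3 difference was -1.78 and the Il4 difference -0.98. The part of those cells was not tested.

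The regulators of the other fates did not pass. Tbx21, which directs Th1 cells, differed by -0.52 with separated groups (adjusted p = 0.924) and the Th1 cytokine Ifng by 1.61 (adjusted p = 0.907). Ifng overlapped between the groups, at 9.07, 7.90 and 6.59 in Th0 and 8.40, 9.93, 9.48 and 10.05 in Th17 cells. Of 19 Th1 genes 6 were higher and 2 lower at an unadjusted p under 0.05, with a median of 0.46 that became 0.17 without Th0 replicate 3. Among the higher were Ccl5 (1.36), a chemokine, and Hlx (0.46), a homeobox factor. Foxp3, the factor of regulatory T cells, differed by -0.83 (adjusted p = 0.971). Of 21 genes associated with regulatory T cells 3 were higher and 6 lower, with a median of -0.04 (-0.25 without Th0 replicate 3 and 0.041 without Th0 replicate 2). The higher ones were Nt5e, Itgae and Capg, an actin-capping protein at 0.75, and the lower ones included the costimulatory receptors Tnfrsf9 and Tnfrsf18.

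Early response factors and feedback genes of T cell receptor signalling had no called member. Nab2, a corepressor of Egr factors, was at 7.13, 6.71 and 6.78 in Th0 and at 6.01, 5.53, 5.72 and 5.64 in Th17 cells. Those groups were well separated, and the difference of -1.14 ± 0.20 lay just outside the threshold (limma, adjusted p = 0.0838). Egr3, a zinc finger factor that Nab2 restrains, differed by -0.996 (adjusted p = 0.880). Of 16 Egr and Nr4a factors 0 were higher and 2 lower at an unadjusted p under 0.05, and of 15 MAP kinase phosphatases and Sprouty-related genes 0 and 2, namely Dusp6 and Spred2 (-0.74). The medians of these lists were -0.19 and 0.07, and neither kept its sign. The first was 0.018 without Th17 replicate 3 and 0.26 without the basophil-rich arrays, and the other was -0.030 without Th0 replicate 1.

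Inhibitors of inflammatory transcripts had small positive differences with no call. Tnfaip3 (A20), which ends NF-κB signalling, was at 6.54, 7.13 and 6.47 in Th0 and 8.05, 7.41, 7.48 and 7.76 in Th17 cells, a difference of 0.96 (adjusted p = 0.626) with no overlap. Of 15 NF-κB subunits and inhibitors 14 had a positive difference, yet 1 was higher and 0 lower at an unadjusted p under 0.05. Among factors that degrade mRNA, 14 of 15 had a positive difference, and 3 were higher at that threshold: Btg1 (1.16), which recruits the deadenylase, and the ribonucleases Zc3h12c (0.90) and Zc3h12a (0.54, Regnase-1). The medians were 0.34 and 0.33, and that of the decay factors became 0.16 without Th0 replicate 1, 0.57 without Th0 replicate 2 and -0.01 without the 3 basophil-rich arrays. In Th2 cells the medians against Th0 were 0.64 and 0.21.

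**Figure D4:**
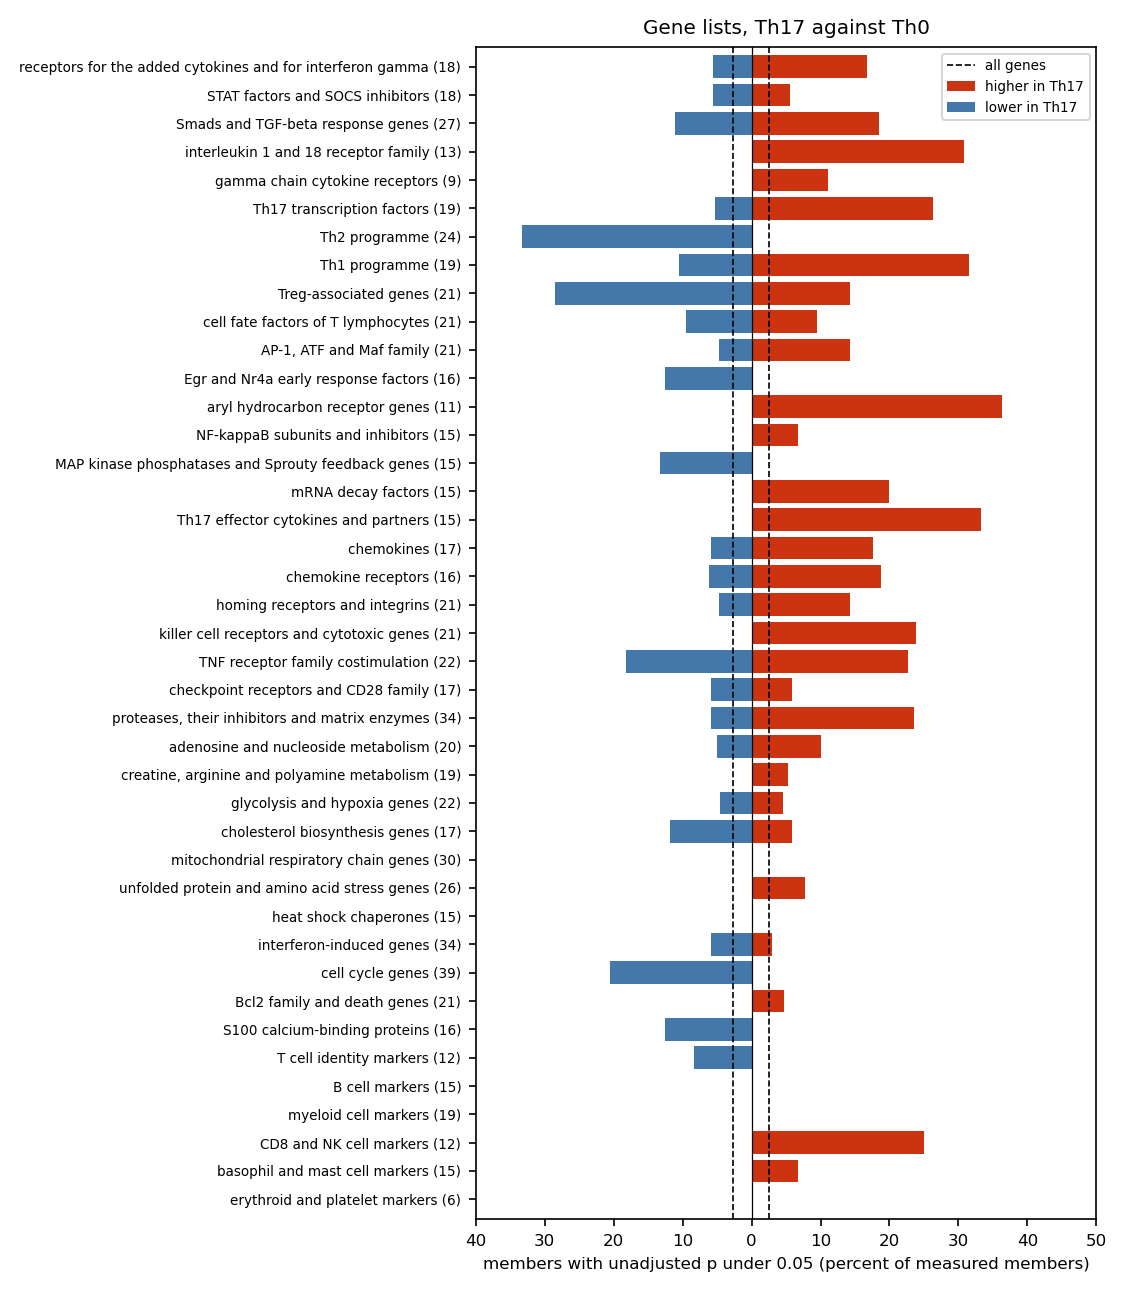
Percent of the measured members of each of 41 gene lists that had an unadjusted limma p under 0.05, higher in Th17 to the right in red and lower to the left in blue, with the number of measured members in parentheses. Dashed lines mark the shares over all genes, 2.50% higher and 2.67% lower. The Th2 programme, cell cycle genes and S100 proteins have bars on the left alone. So do Egr and Nr4a factors, MAP kinase phosphatases and Sprouty-related genes, and T cell identity markers.

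On the cell surface, Gpr15 and Pdpn were called among homing receptors. Gpr15, which guides T cells to the colon, was at 3.72, 4.02 and 3.97 in Th0 and at 6.52, 6.84, 6.01 and 5.18 in Th17 cells. All Th17 arrays exceeded Th0, with Th17 replicate 4 the closest, and Gpr15 rose by 2.24 ± 0.32, or 4.71-fold (limma, adjusted p = 0.0382). It was also 2.73 above Th2 cells (adjusted p = 0.0151). Itgae (CD103), the integrin chain that binds E-cadherin on epithelium, was at 4.41, 3.88 and 3.63 in Th0 and 5.37, 6.71, 6.70 and 5.42 in Th17 cells. Itgae lay outside the threshold against Th0 (2.08 ± 0.36, adjusted p = 0.0804) and inside it against Th2 cells (2.37, adjusted p = 0.0485). Th17 replicates 2 and 3, the highest in Itgae, are basophil-rich arrays. The part of those cells was not tested, and without these basophil-rich arrays and Th0 replicate 1 the difference was 1.64.

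Pdpn, the mucin-like glycoprotein podoplanin, was at 4.15, 3.53 and 3.99 in Th0 and at 7.26, 5.75, 5.86 and 6.74 in Th17 cells. It rose by 2.51 ± 0.33, or 5.71-fold (limma, adjusted p = 0.0319), with no overlap. Th2 cells were at the level of Th0 cells, from 3.83 to 4.19. In contrast the integrin chain Itgb3 differed by -1.97 (adjusted p = 0.931). Of 21 homing receptors and integrins 2 were called, and 3 were higher and 1 lower at an unadjusted p under 0.05, with a median of 0.09 (-0.084 without Th0 replicate 1, 0.33 without Th17 replicate 4 and -0.15 without the basophil-rich arrays). Among 16 chemokine receptors 3 were higher and 1 lower, with a median of 0.23 (0.12 without Th17 replicate 4). Cxcr6, a receptor of tissue-resident T cells, differed by 1.32 (adjusted p = 0.117) and Ccr7, which leads to lymph nodes, by 0.91 (adjusted p = 0.371), both with separated groups. Cysltr1, a receptor for cysteinyl leukotrienes, was at 3.69, 4.41 and 4.67 in Th0 and 7.89, 6.48, 6.92 and 6.13 in Th17 cells. Its difference of 2.60 ± 0.47 did not pass (adjusted p = 0.0951).

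Among killer cell receptors 1 was called. Klrd1 (CD94), which pairs with NKG2 chains to recognise non-classical MHC molecules, was at 3.69, 4.85 and 3.89 in Th0 and at 6.21, 6.51, 7.17 and 5.84 in Th17 cells. It rose by 2.29 ± 0.33, or 4.89-fold (limma, adjusted p = 0.0382), and its groups did not overlap. Its partner Klrc1 (NKG2A), an inhibitory chain, was at 3.78, 3.92 and 3.05 in Th0 and 4.74, 4.88, 5.18 and 5.06 in Th17 cells and differed by 1.38 ± 0.24 (adjusted p = 0.0838). Ctsw, a protease of cytotoxic lymphocytes, differed by 2.04 (adjusted p = 0.146) from Th0 and by 4.11 from Th2 cells (adjusted p = 0.00446), and it was called against Th0 with the Th17 and Th0 arrays alone (adjusted p = 0.0455). Of 21 killer receptors and cytotoxic genes 1 was called and 5 were higher and 0 lower at an unadjusted p under 0.05. The median of 0.20 was 0.046 without Th17 replicate 4 and -0.0076 without the basophil-rich arrays. Of 12 markers of CD8+ T cells and NK cells 3 were higher and 0 lower at an unadjusted p under 0.05, Klrd1 called, Klrk1 at 0.90 and the granzyme Gzmk at 0.92, all with separated groups and all in both lists. The other 9 overlapped between the groups, and the median was -0.10 (0.18 without Th0 replicate 2). The part of such cells in the Klrd1 result was not tested. Ncr1 of NK cells lay between 3.42 and 4.36 on all 7 arrays, and Cd8a was at 4.01, 5.63 and 3.47 in Th0 and 4.88, 4.03, 3.49 and 3.92 in Th17 cells, highest on a Th0 array. The mean of 12 CD8 and NK cell markers was 4.83, 4.89 and 4.33 in Th0 and 4.78, 4.88, 4.96 and 4.77 in Th17 cells. Without the 3 basophil-rich arrays Klrd1 differed by 1.65.

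Costimulatory receptors of the TNF family were divided. Tnfrsf9 (4-1BB) was at 8.91, 9.19 and 8.66 in Th0 and 7.32, 6.32, 7.20 and 8.29 in Th17 cells, a difference of -1.64 (adjusted p = 0.249), and Tnfrsf18 (GITR) differed by -1.20 (adjusted p = 0.719). Tnfrsf25 (DR3), which binds TL1A, differed by 0.93 (adjusted p = 0.201) and Tnfrsf26, a decoy receptor, by 1.32 (adjusted p = 0.471). The groups were separated for each of these 4 receptors. Of 22 members 5 were higher and 4 lower at an unadjusted p under 0.05, with 0 called. The median of 0.15 was 0.065 without Th0 replicate 3, 0.27 without Th0 replicate 2 and 0.015 without the basophil-rich arrays. Among 17 checkpoint receptors and CD28 family members 1 was higher, Cd200 at 0.96, and 1 lower, Pdcd1lg2 (PD-L2) at -0.74.

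Of 34 proteases, their inhibitors and matrix enzymes 3 were called. Cpd, carboxypeptidase D, which removes C-terminal arginine and lysine in the Golgi, was at 6.37, 5.98 and 6.80 in Th0 and at 9.14, 9.14, 8.78 and 9.56 in Th17 cells. The groups were far apart, and Cpd rose by 2.77 ± 0.26, or 6.82-fold (limma, adjusted p = 0.00412). Th2 cells lay between them at 7.10, 7.99 and 7.77. Adam19, a membrane-bound metalloprotease, was at 5.58, 6.10 and 6.51 in Th0 and at 8.41, 7.53, 7.83 and 8.71 in Th17 cells. It rose by 2.06 ± 0.30, or 4.17-fold (adjusted p = 0.0382), and was also above Th2 cells, by 2.36 (adjusted p = 0.0177). Plod2, which hydroxylates lysines of collagen, was uniform in Th0 cells at 4.58, 4.59 and 4.50 and stood at 6.25, 5.97, 5.96 and 6.93 in Th17 cells. Plod2 rose by 1.72 ± 0.22, or 3.29-fold (adjusted p = 0.0284), and was 2.02 above Th2 cells (adjusted p = 0.00788). Of these 34 genes 8 were higher and 2 lower at an unadjusted p under 0.05, and the median of 0.14 was 0.057 without Th0 replicate 3 and 0.26 without Th17 replicate 4. Among those not called were the metalloprotease inhibitors Timp2 (1.09, adjusted p = 0.133) and Timp1 (2.20, adjusted p = 0.278), the latter highest on Th17 replicate 4, at 7.12.

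Enzymes that act on nucleotides and nucleosides were called as well. Nt5e (CD73), the cell surface enzyme that makes adenosine from AMP, was at 3.65, 3.96 and 4.24 in Th0 and at 5.94, 5.91, 5.63 and 6.28 in Th17 cells. Its Th17 values were close together, and Nt5e rose by 1.99 ± 0.28, or 3.97-fold (limma, adjusted p = 0.0382). Acpp, prostatic acid phosphatase, whose membrane form can also dephosphorylate AMP, was at 4.45, 4.43 and 4.64 in Th0 and at 6.58, 6.45, 6.22 and 5.72 in Th17 cells. Acpp rose by 1.74 ± 0.20, or 3.33-fold (adjusted p = 0.0177), and was above Th2 cells by 1.84 (adjusted p = 0.00788). Upp1, uridine phosphorylase, which splits uridine into uracil and ribose phosphate, was at 4.64, 4.56 and 3.55 in Th0 and at 5.62, 6.36, 6.57 and 6.91 in Th17 cells. Upp1 rose by 2.11 ± 0.33, or 4.32-fold (adjusted p = 0.0473). The ATP-hydrolysing partner of CD73, Entpd1 (CD39), did not move with it, at -0.40 (adjusted p = 0.999). Of 20 genes in the list of adenosine and nucleoside metabolism, which does not hold Acpp, 2 were called, Nt5e and Upp1, and these were the 2 higher at an unadjusted p under 0.05. In the list 1 was lower (Xdh, xanthine dehydrogenase, -0.65), and the median was -0.21 (-0.065 without Th0 replicate 2).

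Gatm, which transfers the amidino group of arginine to glycine in creatine synthesis, had the second largest called increase. It was at 3.44, 3.65 and 3.27 in Th0 and at 7.995, 6.310, 6.810 and 7.760 in Th17 cells, well apart. Gatm rose by 3.76 ± 0.36, or 13.6-fold (limma, adjusted p = 0.00412), and was at 3.54, 2.79 and 3.28 in Th2 cells. The next enzyme of creatine synthesis, Gamt, lay between 2.93 and 3.67 on all 7 arrays and differed by -0.24 (adjusted p = 0.999). The creatine transporter Slc6a8 differed by -0.12 (adjusted p = 0.999). Smox, spermine oxidase, which is in no list, was at 4.30, 4.88 and 4.67 in Th0 and 6.33, 5.83, 5.72 and 6.49 in Th17 cells and lay outside the threshold, at 1.48 ± 0.25 (adjusted p = 0.0804). Gatm was the 1 member called of 19 genes of creatine, arginine and polyamine metabolism, with 0 lower at an unadjusted p under 0.05 and a median of 0.10 (0.025 without Th0 replicate 1).

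The remaining called genes belong to none of these groups. Zdhhc2, which attaches palmitate to proteins, rose by 1.20 ± 0.18, or 2.30-fold (limma, adjusted p = 0.0382). Fam3c, a secreted cytokine-like protein, rose by 1.59 ± 0.25, or 3.00-fold (limma, adjusted p = 0.0473). Both were separated from Th0 on every array. Rny3, a small non-coding Y RNA bound by Ro60, was at 6.10, 7.03 and 6.77 in Th0 and at 8.10, 8.54, 9.41 and 8.72 in Th17 cells and rose by 2.06 ± 0.31, or 4.17-fold (limma, adjusted p = 0.0442). It was as high in Th2 cells, at 8.87, 8.46 and 8.18, so that Th17 exceeded Th2 by only 0.19 (adjusted p = 0.982). S100a1, a calcium-binding protein, was the other gene that fell. Its values were 5.22, 5.51 and 5.75 in Th0 and 4.44, 4.20, 4.04 and 3.97 in Th17 cells. S100a1 fell by 1.33 ± 0.17 on the log2 scale (limma, adjusted p = 0.0316), and Th2 cells matched Th0 cells within 0.06. Of 16 S100 genes 0 were higher and 2 lower at an unadjusted p under 0.05, and the median of 0.15 was 0.0011 without Th0 replicate 3 and 0.31 without Th0 replicate 1.

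Cldnd1, a claudin-like membrane protein, rose, as did its neighbour Gpr15. It was at 6.35, 7.49 and 7.33 in Th0 and at 9.34, 8.78, 8.93 and 9.21 in Th17 cells, and rose by 2.01 ± 0.26, or 4.03-fold (limma, adjusted p = 0.0284). The groups did not overlap. Among genes with a measurement, Cldnd1 is next to Gpr15, and Gpr15 is next to Cpox, coproporphyrinogen oxidase of heme synthesis, in the RefSeq gene order of GRCm38.p6. Cpox was at 5.18, 5.88 and 6.45 in Th0 and 7.80, 7.33, 7.65 and 7.09 in Th17 cells, a difference of 1.63 ± 0.29 just outside the threshold (adjusted p = 0.0838). Beyond this stretch Ftdc2, next to Cpox, differed by 0.15, and Gabrr3, past a run of olfactory receptor genes after Cldnd1, by -0.03. Gpr15 and Cldnd1 are transcribed in opposite directions from the start sites shown here, which are printed because these neighbours were both called, with TGANTCA in capitals and no AGGTCA in either window.
Gpr15, chr16:58718823-58719122, minus strand: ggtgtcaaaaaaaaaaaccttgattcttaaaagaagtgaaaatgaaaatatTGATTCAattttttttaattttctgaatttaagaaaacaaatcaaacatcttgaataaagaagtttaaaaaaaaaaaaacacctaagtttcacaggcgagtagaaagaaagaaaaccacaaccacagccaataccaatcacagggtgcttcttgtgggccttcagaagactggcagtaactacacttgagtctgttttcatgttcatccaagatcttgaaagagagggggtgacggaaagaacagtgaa
Cldnd1, chr16:58727660-58727959, plus strand: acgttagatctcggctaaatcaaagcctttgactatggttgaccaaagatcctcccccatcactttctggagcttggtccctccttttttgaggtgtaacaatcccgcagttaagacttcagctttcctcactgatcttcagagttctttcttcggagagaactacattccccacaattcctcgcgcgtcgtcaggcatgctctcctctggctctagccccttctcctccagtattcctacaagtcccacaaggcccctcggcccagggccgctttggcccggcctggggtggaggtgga
The Gpr15 window held TGANTCA at position -199, with T as its middle base, and the Cldnd1 window held neither motif.

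**Figure D5:**
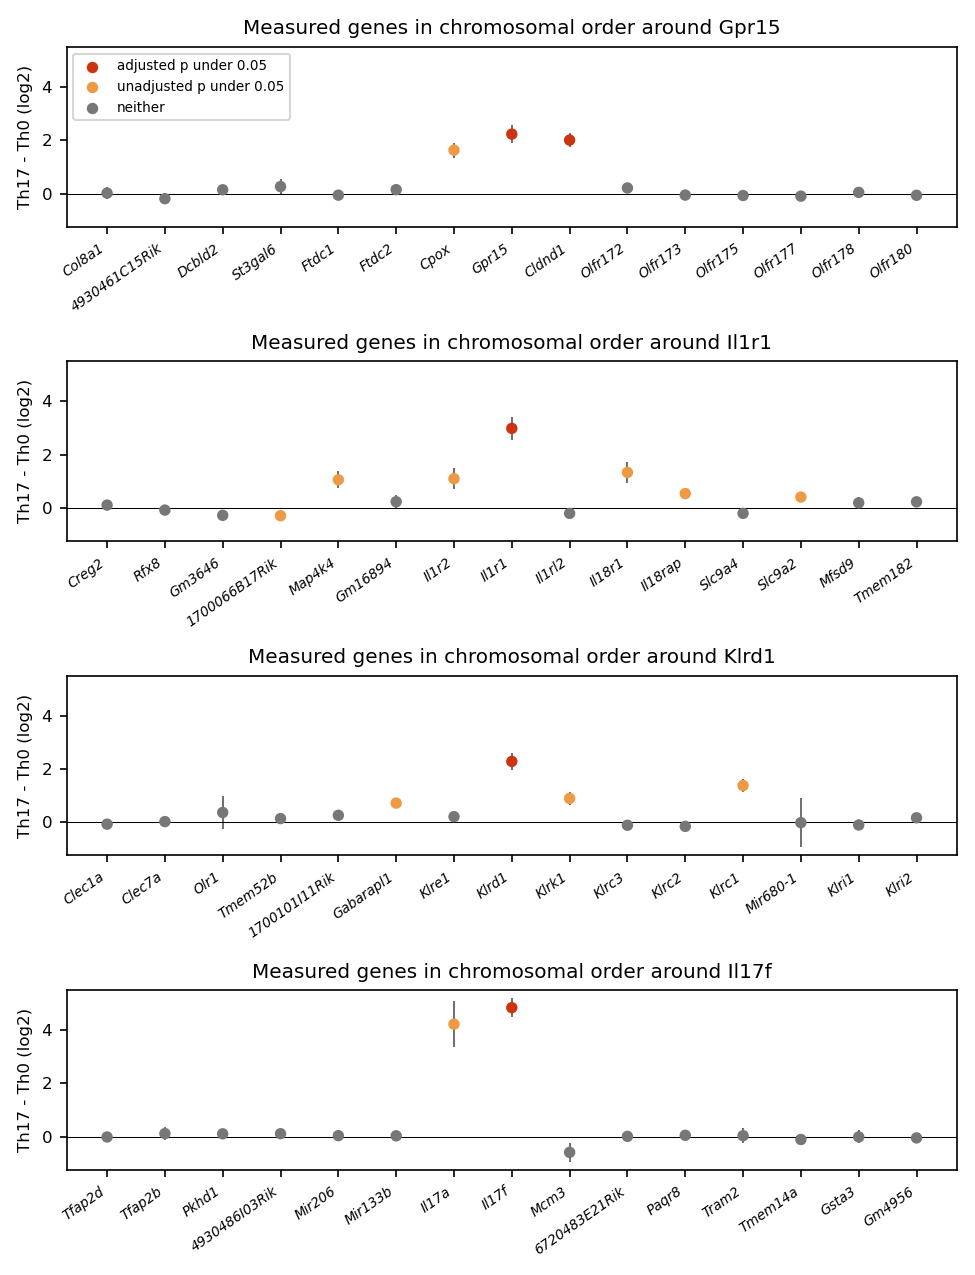
Difference between Th17 and Th0 (y axis, log2, with SE bars) for measured genes in chromosomal order around Gpr15, Il1r1, Klrd1 and Il17f (x axis, gene order, not to scale). Called genes are red and those at an unadjusted p under 0.05 orange, and Cpox, Gpr15 and Cldnd1 stand side by side above genes near 0, while around Il1r1 and Klrd1 raised genes alternate with genes near 0.

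The neighbourhoods of Il1r1 and Klrd1 were mixed. Next to Il1r1 lie Il1r2 on the one side and Il1rl2, a receptor for interleukin 36, on the other, and Il1rl2 differed by -0.20 (adjusted p = 0.999). Next to Klrd1, Klrk1 (NKG2D) was at 3.48, 3.57 and 3.39 in Th0 and 3.69, 4.49, 4.89 and 4.46 in Th17 cells, 0.90 higher without passing (adjusted p = 0.582), while Klre1 on the other side differed by 0.22. S100a13 beside S100a1 differed by -0.60 (adjusted p = 0.880), and Rny1 beside Rny3 by 1.63 (adjusted p = 0.651). Over all 23 called genes there were 44 different neighbours that were not called, of which 7 were higher and 2 lower at an unadjusted p under 0.05, with a median difference of 0.08. Related genes that lie side by side can share probe sequence, and this was not tested.

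Further genes lay just outside the threshold. Samsn1, an adaptor that dampens lymphocyte signalling, was at 6.32, 6.53 and 6.47 in Th0 and 5.54, 5.59, 5.61 and 5.80 in Th17 cells, a difference of -0.80 (limma, adjusted p = 0.0532). The microtubule-binding protein Mapre2 differed by -1.03 (adjusted p = 0.0532) and Rundc3b by -1.01 (adjusted p = 0.0833). On the higher side stood Dst (dystonin, a cytoskeletal linker, 1.60), Myo5a (a myosin motor, 1.20) and Camsap2 (which caps microtubule minus ends, 1.07), with adjusted p of 0.0532, 0.0532 and 0.0675. B4galt1, a galactosyltransferase of the Golgi, differed by 1.23 (adjusted p = 0.0532). Aqp3, a channel for water and glycerol, was at 3.62, 3.71 and 3.48 in Th0 and 6.84, 5.56, 5.32 and 5.04 in Th17 cells and differed by 2.08 (adjusted p = 0.0838). The groups were separated for each of these.

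The other largest decreases with separated groups did not pass with all 10 arrays. Trat1, an adaptor of the T cell receptor complex and 1 of the 12 T cell identity markers, was at 7.08, 6.31 and 7.16 in Th0 and 4.32, 4.41, 4.54 and 4.19 in Th17 cells (-2.49, adjusted p = 0.431). Both groups were tight, the Th2 arrays were at 8.19, 6.35 and 4.60, and with the Th17 and Th0 arrays alone Trat1 was called (adjusted p = 0.00545). The other 11 identity markers did not reach an unadjusted p under 0.05 in the fit of all arrays. Gpr174, a receptor for lysophosphatidylserine, was at 7.34, 8.12 and 6.91 in Th0 and 5.31, 6.15, 5.75 and 4.84 in Th17 cells (-1.94, adjusted p = 0.219). Igsf23 differed by -2.57, Pglyrp1, a peptidoglycan recognition protein, by -2.28, and Itih5 by -2.23 (adjusted p from 0.227 to 0.788). Ms4a4c differed by -2.50 (adjusted p = 0.431), mainly through Th0 replicate 1 at 7.38 against 4.48 and 4.08 on the other Th0 arrays, and that array is basophil-rich.

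Genes of proliferation had mostly negative differences and no call. Of 39 cell cycle genes 38 had a negative difference, and 8 were lower and 0 higher at an unadjusted p under 0.05, with a median of -0.62. The list's mean was 6.91, 7.44 and 7.45 on the Th0 arrays and 7.06, 6.19, 6.76 and 6.33 on the Th17 arrays, so that Th17 replicate 1 exceeded Th0 replicate 1 and the groups overlapped. Cenpe, a kinetochore motor, differed by -1.18, and Kif11, a spindle motor, by -1.11 (adjusted p = 0.880 each). Th2 replicates 2 and 3, which stood apart with Th17 replicate 4, had means of 6.004 and 6.021, while Th2 replicate 1, at 7.512, exceeded every Th0 array. The median of the list was -0.78 for Th2 minus Th0 and 0.08 for Th17 minus Th2. Of 30 genes of the respiratory chain 27 had a negative difference, but 0 passed an unadjusted p under 0.05 in either direction, and the median was -0.17 (-0.074 without Th17 replicate 4). Of 22 glycolysis and hypoxia genes 19 were negative with a median of -0.24, which became 0.02 without Th0 replicate 2 and -0.43 without Th0 replicate 1. Slc2a3, a glucose transporter, differed by -1.69 (adjusted p = 0.471) and Egln3, an oxygen sensor, by 1.05 (adjusted p = 0.928).

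Among markers of cells other than T helper cells Klrd1 was the 1 called, with 3 of 12 CD8 and NK cell markers higher at an unadjusted p under 0.05 as given above. Of 19 myeloid markers and of 15 B cell markers 0 reached an unadjusted p under 0.05, with medians of -0.05 (0.20 without Th0 replicate 1) and -0.09 (-0.21 without Th0 replicate 3). Myeloid markers had means of 4.01, 3.63 and 3.51 in Th0 and 4.18, 3.54, 3.54 and 3.56 in Th17 cells. Ighm, an antibody heavy chain made by B cells, peaked at 10.41 on Th17 replicate 1, with 9.68 on Th0 replicate 2. Of 15 basophil and mast cell markers 1 was higher at an unadjusted p under 0.05, the growth factor receptor Kit at 0.79, and 0 were lower, with a median of -0.15 (0.35 without Th0 replicate 1 and -0.55 without Th0 replicate 2). Of 6 measured erythroid and platelet markers 0 reached that threshold, with a median of -0.15 (0.23 without Th0 replicate 1), and the platelet chemokine Ppbp ran from 5.02 to 9.43 in Th0 and from 3.35 to 7.25 in Th17 cells.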

How the data were processed

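Expression was measured on 10 Affymetrix arrays, 1 per culture, of which 3 were Th0, 3 Th2 and 4 Th17, grouped by title. Where the title and description of a Th2 array disagree (replicate 3 or 4), the title was followed. The deposited values are on a log2 scale and were made with RMA in Expression Console 1.3.0.187, per the submitters' processing notes. RMA corrects background, equalises the distributions of the arrays by quantiles and summarises the probes of each set. RMA compresses differences between weakly expressed genes, and quantile normalization hides a change in total RNA per cell. Levels of different probe sets are not compared. The sources used here give no genome build for the array annotation.

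Of 41345 probe sets 23521 had 1 gene symbol, 1814 several and 16010 none in the probe table used. The probe set with the highest mean stood for each of 22180 genes, 1082 of which had several. Symbols were checked through Entrez IDs against RefSeq, with 23328 matched and 0 changed. No filter on low values was used. Some genes are not analysed here.

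With limma 3.58.1 in R 4.3.3, the means of the 3 groups were estimated jointly from the 10 arrays (lmFit and eBayes, 7 residual degrees of freedom), two-sided, with Benjamini-Hochberg adjustment over all genes and a call at adjusted p under 0.05. Errors of differences are its moderated SE. Th17 minus Th2 and Th2 minus Th0 share arrays with the comparison and are given side by side only. The procedure was tested on simulated data. The 41 gene lists (783 of 860 entries measured) were described by counts and medians, with no test.

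Named genes were all called genes, up to 15 with adjusted p under 0.1, up to 4 members of each list with the smallest p, 11 fixed genes, the 10 largest separated differences in each direction, and the measured neighbours of called genes. Unnamed gene models and olfactory receptors were left out. Cpa3, S100a8, Ighm, Ncr1, Cd8a, Timp1, Ahrr, Entpd1, Gamt, Slc6a8 and the genes drawn in chromosomal order were picked with their values in view. The comparison, the lists and the naming rule were chosen with earlier results of these data known. Promoter windows are from RefSeq (GRCm38.p6). Alternatives covered the arrays used, the replicate block, scaling, filtering, probe set choice and variance moderation.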

Additional observations from a re-analysis of the deposited data

Results flagged for a closer look

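Within the 4 Th17 arrays some values lay far from the other 3. Of 85 genes and list means checked, 6 did so, and chance flags about 1 in 20 groups. Th17 replicate 4 was low in the mean of receptors for the added cytokines and interferon-γ (5.89, against 6.47 to 6.54 on the others). It was also low in the mean of gamma chain cytokine receptors (6.62, against 6.93 to 6.99) and in that of cell fate factors of T lymphocytes (5.77, against 6.44 to 6.52). Among Th17 arrays, replicate 4 was also the outlying 1 on the first principal component. Th17 replicate 1 was high in the mean of Th17 transcription factors (7.18, against 6.87 to 6.90) and in that of myeloid cell markers (4.18, against 3.54 to 3.56), and low in Tbx21 (5.89, against 6.26 to 6.33).

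Probe sets without a single gene symbol were outside the comparison, and 2 of them differed between Th17 and Th0 when all 41345 probe sets were tested together (limma). Probe set 17548166 was at 3.64, 3.62 and 3.53 in Th0, 3.52, 2.34 and 2.87 in Th2 and 8.29, 7.11, 8.08 and 8.71 in Th17 cells. Its difference of 4.45 ± 0.36 (SE, adjusted p = 0.00540) was close in size to that of Il17f. Probe set 17520624 was at 3.38, 3.03 and 2.65 in Th0 and at 5.42, 5.00, 5.57 and 5.04 in Th17 cells, a difference of 2.24 ± 0.22 (adjusted p = 0.0148). Which transcripts they measure is not known here.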

How the results depend on the processing

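The number of genes called, 23 of 22180, was sensitive to the arrays and to scaling. Leaving out each array in turn gave from 2 to 36 calls. It was 60 with array weights, 46 without the 3 arrays apart on the first principal component, 3 without the 3 basophil-rich arrays, 6 with arrays centred on their medians and 7 over all 41345 probe sets. The 7 Th17 and Th0 arrays alone gave 16 calls, but 10 higher and 6 lower, with 9 of the 23 among them. Counts of 16 to 23 were reached with quantile normalization repeated, only genes with a mean of 5 or more, probe sets averaged, an intensity trend or robust moderation.

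With the replicate number as a block, which keeps replicates 1 to 3, 8 genes were called, 7 of them among the 23. Deviations from the group mean of same-numbered Th0 and Th17 arrays correlated at -0.23, 0.02 and -0.04. Those of arrays with unlike numbers ran from -0.27 to 0.28. With so few arrays per group these correlations cannot decide whether the numbers pair the samples. Th17 replicate 4 leaves with the block, so the cause of the lower count was not tested. No called gene changed direction under any setting run. Signs turned only for marker genes that were not called: Pf4, at -0.53, was 0.37 with the block and without the 3 arrays apart and 0.18 with array weights. Over the left-out arrays Pf4 ran from -1.23 to 0.37, Mcpt4 from -2.39 to 0.22, Hdc from -1.001 to 0.13, Itga2b from -0.31 to 0.0204 and Klf1 from -0.0583 to 0.50. Depth is not a quantity of arrays. The number of arrays limits the precision, with a median SE of 0.19.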

Other observations

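Gene groups that answer to stress, interferon or nutrients had no called member. Of 34 interferon-induced genes 25 had a negative difference, against 11805 of all 22180 genes. Their median was -0.19 (-0.54 without the basophil-rich arrays and -0.086 without Th17 replicate 4). At an unadjusted p under 0.05, 1 was higher and 2 lower. The class II transactivator Ciita was 0.56 higher, the chemokine Cxcl10 0.54 lower and the exonuclease Isg20 0.81 lower (limma, adjusted p = 0.788, 0.880 and 0.788). Of 26 genes of the unfolded protein and amino acid stress responses 2 were higher, the chaperone Dnajb9 at 0.70 and the membrane protein Herpud1 at 0.64, with a median of -0.02 (-0.16 without Th0 replicate 1 and 0.20 without Th0 replicate 3), against 0.31 for Th2 minus Th0. Heat shock chaperones had 0 of 15 members at that threshold in either direction and a median of -0.01 (-0.12 without Th0 replicate 2). That median turned to 0.0545 without Th0 replicate 1 and to 0.0505 without the basophil-rich arrays. Of 17 genes of cholesterol synthesis 15 were negative, with a median of -0.24 (-0.47 without Th0 replicate 1 and -0.056 without Th0 replicate 2). Sc5d, a late enzyme of the pathway, was higher by 0.89, while Lss and Pmvk differed by -0.65 and -0.87.

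Receptors of the common gamma chain family had a median of -0.05 over 9 members (-0.24 without Th0 replicate 1 and 0.024 without Th0 replicate 2). Il7r, which keeps resting T cells alive, differed by 1.29 and was at 9.15, 10.06, 9.92 and 8.55 in Th17 and at 7.64, 8.77 and 7.98 in Th0 cells, so the groups overlapped. Among 17 chemokines 3 were higher and 1 lower at an unadjusted p under 0.05, with a median of 0.07 (0.45 without Th0 replicate 1 and -0.049 without Th0 replicate 2). Xcl1, lymphotactin, was at 9.56, 7.22 and 5.38 in Th0 and at 9.17, 10.96, 10.18 and 10.41 in Th17 cells. Its Th0 arrays thus spread over more than its mean difference of 2.79 (limma, adjusted p = 0.907). Of 21 genes of the Bcl2 family and cell death 1 was higher, Pmaip1 (Noxa) at 0.63, with a median of -0.15 (-0.028 without Th0 replicate 2). Cell fate factors of T lymphocytes had 2 members higher and 2 lower of 21, with a median of -0.09 (0.15 without Th17 replicate 4 and -0.37 without the basophil-rich arrays). Of 19 Th17 transcription factors 5 were higher and 1 lower at that threshold, with Ahr called and a median of 0.21 (0.10 without Th0 replicate 1 and 0.42 without Th0 replicate 2).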
